A study of Homo sapiens with 8 samples.

Results

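The genes described here are 9 genes of the tight junction, namely CLDN1, CLDN2, CLDN3, CLDN4, CLDN7, CLDN12, OCLN, TJP1 and F11R. They were taken by name from the table of read counts, in which all 9 were found among 17309 genes, and all 9 passed the filter on low counts that left 13619 genes to be tested. The cells were SW480 and DLD-1, a pair of long-established lines from human colorectal adenocarcinomas. Each line was infected with lentivirus carrying a control hairpin (shControl) or a short hairpin RNA against NAT10, the RNA acetyltransferase under study (shNAT10), and each of the 4 groups held 2 libraries labelled as biological replicates. By label the shControl cells are wild type and the shNAT10 cells are NAT10 knockdown, and neither the hairpin nor the time after infection is named. Nothing further says whether they were separate cultures, so the p-values measure only the spread between these libraries, which may be technical. Polyadenylated RNA was sequenced as single-end reads of 50 bases, and levels are given as CPM (counts relative to the library size after TMM scaling), or as FPKM where genes are compared with each other per length.

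Tight junctions seal the space between neighbouring epithelial cells at their apical border. Claudins form the strands of the seal, and their mixture sets which ions and solutes pass: CLDN2 builds a pore for small cations and water, whereas CLDN1, CLDN3, CLDN4 and CLDN7 are counted among the sealing or barrier-forming claudins of the gut. Occludin (OCLN) and the junctional adhesion molecule F11R are further membrane proteins of the junction, and ZO-1 (TJP1) is the scaffold below the membrane that ties the strands to actin. CLDN7 also occurs along the lateral membrane, where it binds EPCAM.

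Total counts lay between 15147805 and 17271336 per library. NAT10 was measured at 122.3 and 122.5 CPM in the SW480 shControl libraries against 23.6 and 27.9 CPM in the shNAT10 libraries, and at 121.1 and 120.5 CPM against 59.0 and 54.4 CPM in DLD-1. Its log2 fold change was -2.25 ± 0.087 (SE) in SW480 and -1.09 ± 0.081 in DLD-1 (adjusted p = 3.7e-09 and 2.7e-05, edgeR). Of 10 markers of colon epithelium, all were measured in both lines, and their summed level was 3186.7 to 3942.7 CPM in SW480 and 7605.6 to 8185.0 CPM in DLD-1. Most of it came from KRT8 and KRT18, with means of 1603.5 and 1185.1 CPM in SW480 shControl cells. In DLD-1 shControl cells these were 3615.7 and 2239.4 CPM. KRT20 had only 3 counts in SW480 shControl cells. Summed fibroblast markers reached at most 4.80 CPM and endothelial markers at most 1.64 CPM in any library. The leukocyte markers summed to 18.5 to 31.6 CPM, nearly all from CD68, while CD3E, which defines T cells, reached at most 0.176 CPM.

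The largest contrast among the 9 genes was CLDN7, whose estimated counts were mostly assigned to different transcripts in the 2 lines. The gene lies on the minus strand of chromosome 17 (7259903 to 7263213, GRCh38). The table holds 3 CLDN7 transcripts, and in GENCODE these begin at 3 places. NM_001185022 begins furthest upstream with a noncoding exon of 55 bases, whereas NM_001307 begins 735 bases further downstream, inside the first intron of the former. Both models encode 211 residues. NM_001185023 begins 268 bases downstream of NM_001185022, lacks an exon of 85 bases and encodes 145 residues. The 250 bases before the upstream and the downstream start are shown (RefSeq, GRCh38.p14, minus strand, 5′ to 3′). The lines differ in which transcript the counts are assigned to, and NM_001185022 and NM_001307 also differ at their 3′ ends. Which start was used was not tested. Capitals mark CAGGTG or its reverse complement CACCTG, the E2 box bound by zinc finger repressors of the SNAI and ZEB families.
CLDN7 upstream start, chr17:7263214-7263463: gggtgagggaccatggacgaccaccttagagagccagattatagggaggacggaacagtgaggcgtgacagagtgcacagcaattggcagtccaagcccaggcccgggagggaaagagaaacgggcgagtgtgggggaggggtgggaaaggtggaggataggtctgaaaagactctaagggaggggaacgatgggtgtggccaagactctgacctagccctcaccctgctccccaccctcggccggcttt
CLDN7 downstream start, chr17:7262479-7262728: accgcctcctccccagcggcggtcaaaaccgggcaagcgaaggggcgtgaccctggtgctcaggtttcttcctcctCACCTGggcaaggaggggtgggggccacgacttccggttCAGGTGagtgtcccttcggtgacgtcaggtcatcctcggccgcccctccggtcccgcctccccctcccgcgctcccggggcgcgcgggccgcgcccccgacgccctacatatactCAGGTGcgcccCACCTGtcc
The upstream window held 0 E2 boxes and the downstream window held 4. Of 35116 windows of this length before RefSeq starts, 17.5% held the motif at least once on either strand and 0.122% (43 windows) held it at least 4 times. The limit of 4 is the count found in the downstream CLDN7 window, and the motif was chosen after the values were seen. The share of 0.122% is therefore no test. G and C made up 71.2% of the downstream window, against a median of 58.0% over all windows. Windows were given for 8 of the 9 genes (14 windows), and the motif was found in 4 of them, which were before the downstream CLDN7 start, before both starts of OCLN and before 1 of 4 starts of TJP1. The palindrome AACNNGTT, read by the grainyhead-like factors, was in 0 of the 14 windows and in 3.0% of all windows. A match describes letters in a window and not a bound site.

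The first question was how the lines differ before any knockdown. CLDN7 was measured at 12.8 and 13.6 CPM in the SW480 shControl libraries and at 145.9 and 139.3 CPM in those of DLD-1. Every SW480 library was far below every DLD-1 library. In bulk RNA, fewer expressing cells and less RNA per cell cannot be told apart. The log2 fold change (SW480 minus DLD-1) was -3.43 ± 0.102 (SE, 95% CI -3.65 to -3.21, adjusted p = 5.2e-13, edgeR), a level 10.8-fold lower in SW480.

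CLDN2 went the other way, with 28.4 and 28.9 CPM in SW480 and 7.93 and 8.05 CPM in DLD-1. The pore-forming claudin was 3.58-fold higher in SW480 (log2 fold change 1.84 ± 0.102, adjusted p = 5.5e-10, edgeR). CLDN1 was at 24.4 and 28 CPM in SW480 and at 10.0 and 10.0 CPM in DLD-1. This gave a log2 fold change of 1.38 ± 0.108 and a level 2.61-fold higher in SW480 (adjusted p = 2.8e-08, edgeR). CLDN12, a claudin of wide expression that lacks the C-terminal motif by which most claudins bind ZO-1, was at 98.8 and 99.1 CPM in SW480 against 46.2 and 50.3 CPM in DLD-1. It was 2.05-fold higher in SW480 (log2 fold change 1.04 ± 0.091, adjusted p = 9.9e-08, edgeR).

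F11R, which encodes the homophilic adhesion molecule JAM-A, was at 48.9 and 50.1 CPM in SW480 and at 109.7 and 111.5 CPM in DLD-1. It was 2.23-fold lower in SW480 (log2 fold change -1.16 ± 0.072, adjusted p = 1.9e-09, edgeR).

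The neighbouring genes CLDN3 and CLDN4 on chromosome 7 differed little between the lines and in opposite directions. CLDN3 was at 19.7 and 18.9 CPM in SW480 and at 14.8 and 14 CPM in DLD-1, which is 1.34-fold higher in SW480 (log2 fold change 0.42 ± 0.116, adjusted p = 0.0044, edgeR). CLDN4 was at 117.0 and 110.8 CPM in SW480 and at 133.5 and 131.8 CPM in DLD-1, a log2 fold change of -0.22 ± 0.073 (adjusted p = 0.014, edgeR). The call for CLDN4 was lost without SW480 shControl replicate 2 (-0.18, adjusted p = 0.12) or without DLD-1 shControl replicate 1 (-0.22, adjusted p = 0.059).

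The general components of the junction lay closest together. TJP1 was at 222.5 and 227.6 CPM in SW480 and at 194.5 and 202.7 CPM in DLD-1 (log2 fold change 0.18 ± 0.081, 95% CI 0.01 to 0.35, adjusted p = 0.058, edgeR). OCLN was at 40.6 and 38.7 CPM in SW480 and at 44.0 and 43.7 CPM in DLD-1 (-0.15 ± 0.076, 95% CI -0.31 to 0.02, adjusted p = 0.096). Neither gene passed the test across all genes. The TJP1 call depended on the fit, as it passed with upper-quartile scaling (adjusted p = 0.035), with the shControl samples fitted alone (adjusted p = 0.010), and when SW480 shNAT10 replicate 1 or 2 was dropped from the shared estimate of the spread (adjusted p = 0.0083 and 0.0076). On log2(FPKM + 1), from transcripts with a value in every library, the direction turned for both genes, to -0.30 for TJP1 (adjusted p = 0.27, limma) and 0.06 for OCLN (adjusted p = 0.62). This left out transcripts of both genes that had no value in SW480 shNAT10 replicate 2. With all transcripts, TJP1 was at 32.8 and 33.8 FPKM in SW480 shControl and at 28.5 and 29.6 FPKM in DLD-1 shControl libraries, still higher in SW480. OCLN was at 7.96 and 9.12 FPKM against 8.17 and 9.19 FPKM, which overlap. OCLN has a partial copy on the same chromosome, the pseudogene OCLNP1, so reads may be divided between them.

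In all, 7 of the 9 genes differed between the lines in shControl cells at an adjusted p under 0.05, 4 of them higher and 3 lower in SW480. Among all tested genes, 73.8% were called in this comparison, 38.1% higher and 35.6% lower in SW480, so the count is near that of genes at large. Differences of at least 2-fold, a limit chosen after the values were seen, were found for 5 of the 9 genes (CLDN7, CLDN2, CLDN1, F11R and CLDN12) and for 29.2% of all tested genes. The median log2 fold change was 0.18 over the 9 genes and 0.01 over all tested genes.

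In shNAT10 cells, which are separate libraries, the same comparison called 8 of the 9 genes, against 74.5% of all tested genes. CLDN7 (-3.27 ± 0.101), CLDN2 (1.71 ± 0.098), CLDN1 (1.38 ± 0.110), F11R (-1.22 ± 0.071), CLDN12 (0.84 ± 0.092), CLDN3 (0.47 ± 0.113) and CLDN4 (-0.28 ± 0.073) had the direction they had in shControl cells. OCLN was lower in SW480 here (-0.26 ± 0.078, adjusted p = 0.0080, edgeR). TJP1 had a log2 fold change of -0.13 ± 0.082 (adjusted p = 0.17), and its libraries overlapped between the lines. Without SW480 shNAT10 replicate 2 it was -0.28. On log2(FPKM + 1) it was -0.58 (adjusted p = 0.048, limma), but this left out TJP1 transcripts that had no value in SW480 shNAT10 replicate 2. The CLDN4 call was lost without DLD-1 shNAT10 replicate 1 (-0.20, adjusted p = 0.060) and the OCLN call without DLD-1 shNAT10 replicate 2 (-0.21, adjusted p = 0.066).

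Per transcript length, the order of the genes changed between the lines. In SW480 shControl libraries CLDN4 led with 75.4 and 72.0 FPKM, followed by TJP1 (32.8 and 33.8 FPKM), CLDN12 (30.7 and 31.1 FPKM) and CLDN3 (19.8 and 19.1 FPKM). CLDN7 (10.5 and 11.5 FPKM) overlapped both F11R (11.2 and 11.6 FPKM) and CLDN2 (10.7 and 11 FPKM), F11R lay above CLDN2, and there was overlap between OCLN (7.96 and 9.12 FPKM) and CLDN1 (7.69 and 8.92 FPKM). In DLD-1 shControl libraries CLDN7 led with 113.6 and 108.6 FPKM, ahead of CLDN4 with 85.1 and 84.3 FPKM. TJP1 (28.5 and 29.6 FPKM) and F11R (25 and 25.6 FPKM) came next. CLDN12 (14.2 and 15.7 FPKM) and CLDN3 (14.7 and 13.8 FPKM) overlapped, and OCLN (8.17 and 9.19 FPKM), CLDN1 (3.14 and 3.16 FPKM) and CLDN2 (2.93 and 3.04 FPKM) stood last. CLDN7 thus held the top place of the 9 genes in DLD-1 and shared a low place in SW480. With 2 libraries a gap between neighbours is described here and not tested.

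The transcripts of CLDN7 were looked at after the gene totals had been seen, and they are described without a test. NM_001307, the transcript of the downstream start, was assigned 2412, 2267, 2297 and 1919.7 estimated counts in the 4 DLD-1 libraries, which is 96.1% to 97.3% of the gene's counts. In SW480 it was assigned 48.6 and 10.9 counts in shControl and 50.0 and 0.01 counts in shNAT10 libraries. NM_001185022, the transcript of the upstream start, was assigned 148 and 205 counts in SW480 shControl and 188 and 196 counts in SW480 shNAT10 libraries, or 67.5% to 92.6% of the gene. In DLD-1 it had 5.99, 19.2, 19.4 and 0.0 counts. The ranges of the 2 lines did not overlap for either transcript, and they went in opposite directions. Most exons are shared by these models, so the division of the reads is an estimate that rests on the few bases that differ. Between NM_001185022 and NM_001307 these are the first exon of the former (55 bases), the first 135 bases of the latter and its last 234 bases, beyond the end of NM_001185022. The gene ELP5 ends on the opposite strand within the last CLDN7 exon, and whether reads were counted by strand is not given in the sources used here.

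**Figure D1:**
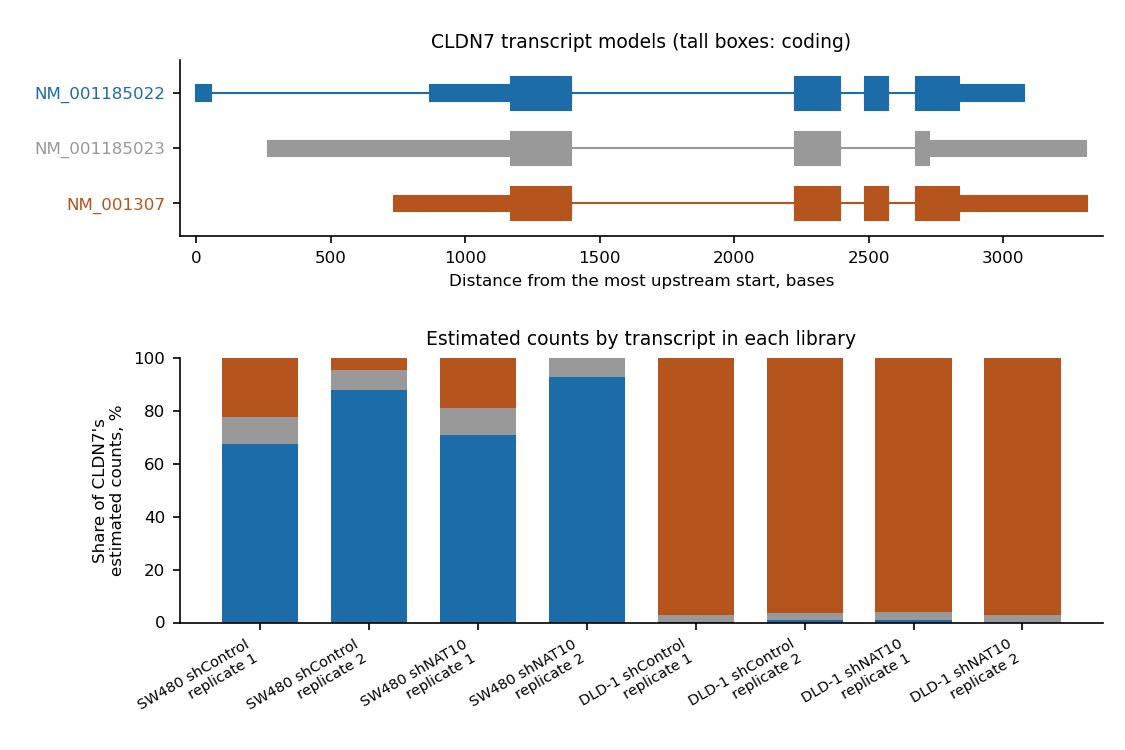
Upper panel, models of the 3 CLDN7 transcripts in the direction of transcription (x axis, distance in bases from the most upstream start; tall boxes are coding and low boxes noncoding exons). Lower panel, share of CLDN7's estimated counts assigned to each transcript in each library (y axis, percent, same colours): NM_001307 holds 96.1% to 97.3% in DLD-1, and NM_001185022 holds 67.5% to 92.6% in SW480.

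The other genes gave no such contrast. CLDN1, CLDN3 and CLDN4 have 1 transcript each in the table. NM_016946 held at least 99.1% of the F11R counts and NM_012129 77.0% to 85.2% of those of CLDN12. NM_001171095 held at least 81.8% of the CLDN2 counts in every library. GENCODE lists a further CLDN2 start that shares the coding exon, so the start used cannot be told from this share. The 13 transcripts of TJP1 were divided unevenly between replicates, with 15% to 43.5% for the most counted of them, and are not described further.

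The second question was what NAT10 knockdown did to these genes. In SW480, 0 of the 9 genes were called at an adjusted p under 0.05 (edgeR), against 1.68% of all tested genes, and 4 had an unadjusted p under 0.05, against 19.3% of all tested genes. In DLD-1, 0 of the 9 were called, against 0.0147% of all tested genes, and 1 had an unadjusted p under 0.05, against 5.96%. The 95% intervals of these 18 effects lay between -0.48 and 0.60 on the log2 scale. A miss of the threshold does not show that a level stayed the same, and in SW480 DESeq2 called 1 of the 9, TJP1.

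The gene with the lowest p in SW480 was TJP1, which was at 222.5 and 227.6 CPM in shControl and at 164.1 and 199.7 CPM in shNAT10 libraries. Both shNAT10 libraries lay below both controls, replicate 1 further than replicate 2. The log2 fold change was -0.31 ± 0.081 (95% CI -0.48 to -0.13, unadjusted p = 0.0021, adjusted p = 0.078, edgeR). The adjusted p was 0.032 with DESeq2, 0.0016 when SW480 shNAT10 replicate 2 was dropped (-0.46) and 0.39 when replicate 1 of that group was dropped (-0.17). In DLD-1, TJP1 was at 194.5 and 202.7 CPM against 193.2 and 204.7 CPM, a log2 fold change of 0.00 ± 0.082. The difference of the effects between the lines was -0.31 ± 0.115 (adjusted p = 0.49, edgeR), and without SW480 shNAT10 replicate 2 it was -0.46 (adjusted p = 0.029).

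CLDN12 followed the same course in SW480, with 98.8 and 99.1 CPM in shControl against 75.0 and 91.0 CPM in shNAT10 libraries. Its log2 fold change was -0.25 ± 0.088 (adjusted p = 0.15, edgeR). Dropping SW480 shNAT10 replicate 1 gave -0.12 (adjusted p = 0.66), and dropping its fellow replicate 2 gave -0.40 (adjusted p = 0.0059). In DLD-1 the effect was -0.05 ± 0.094. OCLN was at 40.6 and 38.7 CPM against 35.8 and 33.8 CPM in SW480 (-0.19 ± 0.077, adjusted p = 0.21) and at 44.0 and 43.7 CPM against 40.3 and 42.9 CPM in DLD-1 (-0.08 ± 0.076, adjusted p = 0.94). On log2(FPKM + 1) the DLD-1 value for OCLN turned to 0.16 (adjusted p = 0.94, limma).

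Levels in the SW480 libraries moved with transcript length. Lengths here are those that the counts and FPKM values imply, which are not full transcript lengths. For the main CLDN2 transcript this gave 2646 bases, though 1 of its exons has 2809 bases. Among genes with a mean over 10 CPM, the median log2 deviation of SW480 shNAT10 replicate 1 from the mean of the SW480 libraries was 0.17 for transcripts of up to 1000 bases (971 genes) and -0.12 for those of 5000 to 7000 bases (1226 genes). SW480 shControl replicate 2 went the other way, with -0.13 and 0.08, and in the other 6 libraries the medians lay between -0.04 and 0.06. The main transcripts of TJP1 (6595 bases) and OCLN (5908 bases) are the longest of the 9, followed by F11R (4366 bases), CLDN12 (3216 bases) and CLDN1 (3171 bases), and that of CLDN3 (1000 bases) is the shortest. With a correction for transcript length, the effects in SW480 were -0.19 for TJP1 (adjusted p = 0.075, edgeR), -0.22 for CLDN12, -0.08 for OCLN and 0.10 for CLDN3. The correction was fitted to each library's deviation from the mean of its line, shControl and shNAT10 together. It would also remove a knockdown effect that follows length, so it cannot separate the 2.

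CLDN2 was higher after knockdown in both lines. It went from 28.4 and 28.9 to 32.8 and 33.7 CPM in SW480, and from 7.93 and 8.05 to 10.5 and 9.78 CPM in DLD-1. Both shNAT10 libraries lay above both controls in each line, though neither effect passed the test. The log2 fold change was 0.22 ± 0.086 in SW480 (unadjusted p = 0.025, adjusted p = 0.20, edgeR) and 0.35 ± 0.116 in DLD-1 (unadjusted p = 0.0092, adjusted p = 0.64). Over both lines the mean effect was 0.28 ± 0.072 (95% CI 0.13 to 0.44, unadjusted p = 0.0015, adjusted p = 0.085), the largest absolute mean effect of the 9 genes. The adjusted p of this mean was 0.038 with the length correction, and it lay between 0.043 and 0.38 when single libraries were dropped, passing the threshold only without SW480 shNAT10 replicate 2. Of the mean effects, 0 of 9 were called, against 1.02% of all tested genes, and 5 had an unadjusted p under 0.05, against 14.5%. Without SW480 shNAT10 replicate 2 the mean effect was called for 3 of the 9, which were CLDN2, TJP1 (-0.23) and CLDN12 (-0.23). Of the differences between the lines, 0 of 9 were called against 0.00734% of all tested genes, and 1 had an unadjusted p under 0.05, against 9.38%.

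CLDN3 was at 19.7 and 18.9 CPM against 24.2 and 20.4 CPM in SW480 (0.21 ± 0.110) and at 14.8 and 14 CPM against 17.1 and 15 CPM in DLD-1 (0.16 ± 0.119). CLDN2, CLDN3 and OCLN were the genes whose shControl and shNAT10 libraries did not overlap in either line, with the same direction in both. This held for 11.7% of all tested genes, so 3 of 9 rests on a small number. Within SW480 the groups of 5 of the 9 genes did not overlap, against 47.9% of all tested genes, and within DLD-1 those of 5 of the 9, against 36.0%.

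CLDN7, CLDN1, CLDN4 and F11R had effects between -0.08 and 0.11 in both lines. For CLDN4 and F11R both DLD-1 shNAT10 libraries lay above both controls, where the groups of 36.0% of all tested genes did not overlap. CLDN7 was at 12.8 and 13.6 CPM against 15.6 and 12.4 CPM in SW480 (0.08 ± 0.118, 95% CI -0.17 to 0.33) and at 145.9 and 139.3 CPM against 140.8 and 129.5 CPM in DLD-1 (-0.08 ± 0.084, 95% CI -0.26 to 0.10). The effects on CLDN1 were -0.03 ± 0.097 and -0.02 ± 0.123, those on CLDN4 0.04 ± 0.073 and 0.11 ± 0.073, and those on F11R 0.02 ± 0.074 and 0.09 ± 0.068, in SW480 and DLD-1 in that order.

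At the limits the study set (fold change above 1.2 or below 0.83 with an unadjusted p under 0.05), TJP1 was lower in SW480 and CLDN2 was higher in DLD-1 and in the mean over both lines. This was 1 of the 9 genes in each comparison, against 9.08%, 2.68% and 3.12% of all tested genes.

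**Figure D2:**
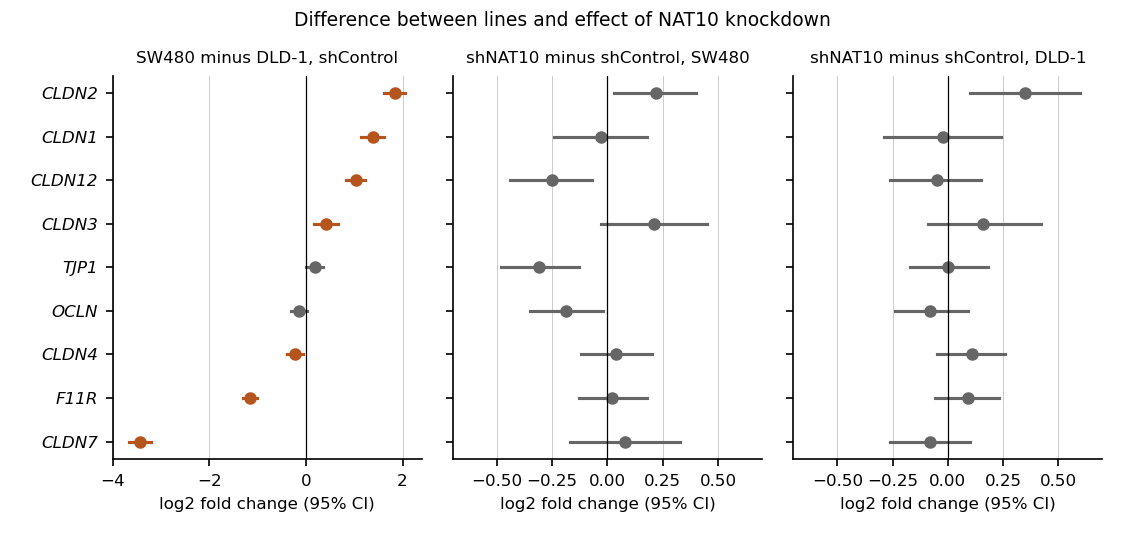
Log2 fold change with its 95% confidence interval for each of the 9 genes (edgeR). The left panel shows SW480 minus DLD-1 in shControl cells, the middle and right panels show shNAT10 minus shControl in SW480 and in DLD-1 on a narrower x axis. Orange marks an adjusted p under 0.05, reached by 7 genes on the left and by 0 in the other panels.

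Other genes of the junction, from lists of 47 further tight junction genes, showed how the lines differed around the 9. Of these, 41 were in the table and 30 were tested, of which 10 were higher and 15 lower in SW480 shControl cells. This is 83.3% called, against 73.8% of all tested genes (38.1% higher and 35.6% lower). Of the other claudins, CLDN11, known from myelin and testis, was at 75.9 and 78.3 CPM in SW480 and at 0 counts in DLD-1, which makes it at least 872-fold higher in SW480, with 3 counts over the group as the floor. CLDN5, the claudin of endothelium, had 0 counts in SW480 shControl and 113 in DLD-1 shControl, at least 37.9-fold lower in SW480. CLDN6, an embryonic claudin, had 118 counts in SW480 and 2 in DLD-1 (ratio 58.6, exact 95% interval 15.9 to 490.0 from counting error). CLDN5 and CLDN6 reached at most 4.12 and 4.0 CPM in any library.

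Among the other membrane proteins 8 were tested, of which 7 were lower and 1 was higher in SW480, against 35.6% and 38.1% of all tested genes. ILDR1, an angulin of tricellular corners, had 2 counts in SW480 and 272 in DLD-1 (ratio 137, exact 95% interval 37.5 to 1140.0). MARVELD3, a relative of occludin, was 12.2-fold lower in SW480 (-3.61 ± 0.157) and the polarity protein CRB3 3.03-fold lower (-1.60 ± 0.112, adjusted p at most 8.2e-09 for both, edgeR). Of 16 plaque and polarity genes tested, 7 were higher and 6 lower, or 81.2% called against 73.8% of all tested genes. The lower ones included the plaque protein cingulin (CGN, -3.17 ± 0.121) and ZO-3 (TJP3, -2.12 ± 0.089), whereas angiomotin (AMOT, 1.47 ± 0.219) was higher.

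The adherens junction and desmosome list had 15 tested genes, 11 lower and 3 higher in SW480, against 35.6% and 38.1% of all tested genes. NECTIN4 had 3 counts in SW480 and 96 in DLD-1, the desmosomal cadherin DSC2 was 9.65-fold lower (-3.27 ± 0.140) and NECTIN1 was 5.27-fold higher (2.4 ± 0.110). The 5 genes described of EPCAM and the matriptase system of membrane proteases and their inhibitors were all lower in SW480. EPCAM itself, the partner of CLDN7, was at 140.0 and 141.0 CPM in SW480 against 655.7 and 625.0 CPM in DLD-1 (-2.19 ± 0.064). The membrane protease prostasin (PRSS8) was at -4.61 ± 0.127 and matriptase (ST14) at -2.14 ± 0.072 on the log2 fold change scale.

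Of 11 tested transcription factors linked to junction genes, 5 were higher and 6 lower in SW480, against 38.1% and 35.6% of all tested genes. GRHL2, an activator of epithelial junction genes, had 0 counts in the SW480 groups and was at 84.2 and 84.3 CPM in DLD-1 shControl, at least 959-fold lower in SW480. SNAI2, an E2 box repressor, had 106 counts in SW480 and 1 in DLD-1 (ratio 105, exact 95% interval 18.5 to 4200.0). OVOL1, which holds the epithelial state, had 3 against 230 counts (ratio 77.2 in favour of DLD-1, exact 95% interval 26.1 to 377.0). ZEB1, another E2 box repressor, named here after its values were seen, was at 30.7 and 32.8 CPM in SW480 and at 0.235 and 0.651 CPM in DLD-1. These factors differ between the lines together with most other tested genes, and their part in the levels of CLDN7 or any other of the 9 genes was not tested. Of the 10 colon markers, 8 were lower and 2 higher in SW480. KRT20 had 3 counts in SW480 and 649 in DLD-1, and CDH17 was 6.15-fold lower in SW480 (-2.62 ± 0.106). The higher ones, named here after their values were seen, were VIL1 and LGALS4. VIL1 had a mean of 14.5 CPM in SW480 against 5.42 CPM in DLD-1 shControl cells, and LGALS4 2.08 against 1.0 CPM.

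The same lists were then compared between shNAT10 and shControl cells. In SW480, 2 of the 30 other tight junction genes were called, against 1.68% of all tested genes, and both were lower. CLDN11 went from 75.9 and 78.3 to 56.2 and 51.6 CPM (-0.52 ± 0.079, adjusted p = 0.0081, edgeR). AMOTL2, an angiomotin relative, went from 168.8 and 170.9 to 136.1 and 139.9 CPM (-0.30 ± 0.069, adjusted p = 0.043, edgeR). The AMOTL2 and CLDN11 calls changed with the fit, as 0 of the 30 were called with the SW480 samples alone or without the filter on low counts, 7 without SW480 shNAT10 replicate 2 and 0 or 1 when any other library was dropped. In DLD-1 the count was 0 of 30, against 0.0147% of all tested genes, with 1 at an unadjusted p under 0.05, against 5.96%. No gene of the adherens junction, EPCAM, transcription factor or cell type lists was called in either line (edgeR), with 6 of 43 genes in SW480 and 2 of 43 in DLD-1 at an unadjusted p under 0.05, where all tested genes gave 19.3% and 5.96%.

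The genes with the most similar pattern were sought by the distance of log2 CPM, centred on each gene's own mean, over the 8 libraries. Since the lines differ at most genes, such likeness mostly reflects the line difference. For CLDN7 they were PARP10 (distance 0.241), PKIB (0.254) and C1orf210 (0.291). For CLDN2 they were TNFRSF1B (0.217), KLHL21 (0.248) and PELATON (0.278), and for CLDN1 they were PTPRG (0.146), CTH (0.155) and RIMKLA (0.180). TNFRSF1B, a receptor for tumour necrosis factor, was at 79.8 and 89.6 CPM in SW480 shControl and at 24.7 and 24.5 CPM in DLD-1 shControl, with 31.7 and 29.4 CPM in DLD-1 shNAT10 libraries.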

How the data were processed

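The 8 RNA-seq libraries were put into 4 groups of 2 by the labels (SW480 or DLD-1 line, shControl or shNAT10 virus). The authors deposited estimated counts per RefSeq transcript, not normalized, and FPKM values per library. The submitters' processing notes name HISAT2 2.0.4, Bowtie2 2.2.5, RSEM 1.2.12 and the build hg38. The deposited FPKM values of SW480 shNAT10 replicate 2 end early, which leaves 14655 of 78953 transcripts without a value, and FPKM served for levels per length and as an alternative only.

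Estimated counts were summed per gene, rounded, filtered with filterByExpr (minimum count 10, minimum total 15) and scaled by TMM. Gene symbols were matched for 99.3% of the identifiers. The 4 groups were fitted together with edgeR 4.0.16 in R 4.3.3 (quasi-likelihood, no replicate term, coefficient of variation between replicates 0.0585), and p-values were adjusted by Benjamini-Hochberg over all 13619 tested genes. The SE of a log2 fold change is its size over the square root of its F statistic. The design had counts per gene in view, and sums over transcripts took their place. The model was tested on simulated data. Alternatives used DESeq2 1.42.0, limma 3.58.1 on log2(FPKM + 1) and log2(FPKM + 0.1), other scaling, no filter, single comparisons, a replicate block and each library left out. The length correction was added after the data were seen. Intervals and floors from 3 counts cover counting error only.

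The 9 genes and the gene lists were chosen with earlier results of these data known. A gene of the EPCAM list is not reported here. Named genes are NAT10, the 9 genes, up to 3 called genes of each list by size per comparison, and the 3 nearest in pattern to each of CLDN7, CLDN2 and CLDN1. Motifs, starts and transcript shares were chosen after the values were seen. Transcript models are from GENCODE on GRCh38 and windows before starts from RefSeq on GRCh38.p14. These steps used Python 3.11.15 with pandas 2.3.3.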

Additional observations from a re-analysis of the deposited data

Results flagged for a closer look

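NAT10, the targeted gene, was the only tested gene whose knockdown effect differed between the lines at an adjusted p under 0.05 (edgeR), with a log2 difference of -1.16 (SW480 minus DLD-1, adjusted p = 0.0015). It was lower in shNAT10 libraries in both lines, and by more in SW480. The same difference was not called for any of the 9 tight junction genes, whose test therefore compares lines with unequal knockdown.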

How the results depend on the processing

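The number of the 9 genes called between the lines stayed within 1.5 times of 7 in shControl and of 8 in shNAT10 cells under every alternative run, and for the other tight junction genes it moved from 25 to 16 with log2(FPKM + 0.1). Knockdown counts moved with the setting. For the 9 genes in SW480 they were 1 with DESeq2, 2 with the replicate block, 1 at the limits of the study and 0 to 2 with a library left out, the 2 being TJP1 and CLDN12 without SW480 shNAT10 replicate 2. In DLD-1 the count was 1 at the limits of the study. For the mean effect it was 2 with the block, 1 with the length correction, 1 at the limits of the study and 0 to 3 with a library left out, and for the difference 1 at those limits and 0 to 1 with a library left out. The highest of these ranges came without SW480 shNAT10 replicate 2. For the other tight junction genes in SW480 it was 1 with upper-quartile scaling, 4 with the block, 0 without a filter, with the samples alone and with both FPKM pseudocounts, and 0 to 7 with a library left out (7 without SW480 shNAT10 replicate 2). Over all tested genes, SW480 gave 41 without a filter, 29 fitted alone, 1654 with the block, 5 and 4 with log2(FPKM + 1) and log2(FPKM + 0.1), 378 with the length correction, 1237 at the limits of the study and 16 (without SW480 shControl replicate 2) to 2179 (without SW480 shNAT10 replicate 2) with a library left out. DLD-1 gave 15, 1, 38, 65, 0, 7, 45 and 365 with DESeq2, no filter, samples alone, block, the FPKM pseudocounts 1 and 0.1, length correction and those limits, and 1 to 31 with a library left out (31 and 27 without SW480 shNAT10 replicates 1 and 2). A group left with 1 library was assumed to vary like the others. The cause of these moves was not tested.

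Directions turned only for values that were not called in the fit described above. For OCLN, TJP1 and F11R the FPKM fits left out transcripts that had no value in SW480 shNAT10 replicate 2. On log2(FPKM + 1) and log2(FPKM + 0.1), built from transcripts with a value in every library, the line difference in shControl cells became 0.0648 and 0.072 for OCLN and -0.297 and -0.317 for TJP1, and the DLD-1 effect on OCLN became 0.163 and 0.181, that on TJP1 -0.0069 and -0.00748, and the SW480 effect on F11R -0.00342 and -0.00373. The length correction gave 0.00414 for CLDN1, -0.0164 for CLDN4 and -0.000153 for CLDN7 in SW480, and -0.00292 for TJP1 in DLD-1, where upper-quartile scaling gave -0.00318. With a library left out, the effect in SW480 ranged from -0.125 to 0.0735 for CLDN1, -0.00726 to 0.0871 for CLDN4, -0.0942 to 0.241 for CLDN7 and -0.00724 to 0.054 for F11R, that in DLD-1 from -0.0547 to 0.00681 for CLDN1, -0.115 to 0.00892 for CLDN12 and -0.04 to 0.0436 for TJP1, and the line difference of TJP1 in shNAT10 cells from -0.277 to 0.00591.

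Replicate numbers are shared by the groups, but nothing in the labels ties equal numbers to a shared batch. Deviations of equally numbered libraries correlated between -0.005 and 0.128 across genes, so they are taken to share only a number. With the replicate block TJP1 and CLDN12 in SW480 (adjusted p = 0.0014 and 0.017), TJP1 and CLDN2 in the mean (0.028 and 0.021) and the TJP1 line difference in shControl (0.0075) and shNAT10 cells (0.046) passed the threshold in edgeR.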
